A study of Mus musculus with 4 samples.

Results

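Microglia are the resident macrophages of the brain, and 10 of their marker genes were followed in brains of embryonic mice labelled as knockout or wild type for macroH2A, a variant of histone H2A with a large additional domain. The genes were chosen by name: Csf1r, Cx3cr1, C1qa, C1qb, C1qc, Aif1, Trem2, Tyrobp, Mrc1 and Cd68. All 10 are listed in both deposited tables, which share 19150 genes, and all 10 were among the 15708 genes that held enough reads to be tested. The series sets brains of macroH2A knockout embryos (label KO, libraries KO2 and KO4) against brains of wild-type embryos (label WT, libraries WT6 and WT8), all of strain C57BL/6 at E13.5, with total RNA sequenced. The labels used here do not say which macroH2A gene was deleted, whether the deletion was confined to a cell type, or whether an RNA sample came from 1 embryo or several. They do not name litters either. A p-value here therefore reflects how far these few samples scatter, and part of that scatter may be technical.

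Microglia descend from macrophages of the yolk sac that enter the neural tube during early development, and macrophages of the meninges and vessels share this origin. Their survival depends on the receptor CSF1R and its ligands CSF1 and IL-34, and they sense the neuronal chemokine fractalkine through CX3CR1. The surface receptor TREM2 signals through the adaptor TYROBP, C1q starts the classical complement cascade, and CD68 lies in the membrane of lysosomes. At the stage studied microglia are few among neural cells. In bulk RNA, fewer cells of a type and less RNA per cell cannot be told apart.

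The libraries held between 16470090 and 18136745 reads in the tables. Reads were reduced in KO for H2afy (macroH2A1), which had 1368 and 1267 reads in KO2 and KO4, against 5538 and 5593 in WT6 and WT8 (log2 fold change -2.22, edgeR quasi-likelihood adjusted p = 0.00167), a call that was lost without WT6. H2afy2 (macroH2A2) stood at 0.08 (edgeR adjusted p = 0.799). All 15 defining neural markers of the labelled tissue were listed, with a summed level of 8400 and 8047 CPM (the read count scaled to library size, with TMM factors) in KO2 and KO4, against 8375 and 8741 CPM in WT6 and WT8. The 10 marker genes together reached 50.1 and 47.3 CPM in KO2 and KO4, against 51.3 and 61.8 in WT6 and WT8, and both KO sums lay below both WT sums. WT8 alone held the high sum, and KO2 and WT6 lay close together.

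C1qb and C1qc are the C1q genes for which a window was used here, and Mrc1 had the largest fold change among the 10. The sequences before these 3 genes are shown. They are RefSeq windows on GRCm38.p6, printed 5′ to 3′ on the strand of the gene, and end at the RefSeq start or where the gene begins in the deposited tables. Capitals mark the letters GAGGAA, the core bound by the macrophage factor PU.1, and GGAAGT, a core of the ETS family to which PU.1 belongs, on either strand.
C1qb (chr4:136886201-136886450, minus strand): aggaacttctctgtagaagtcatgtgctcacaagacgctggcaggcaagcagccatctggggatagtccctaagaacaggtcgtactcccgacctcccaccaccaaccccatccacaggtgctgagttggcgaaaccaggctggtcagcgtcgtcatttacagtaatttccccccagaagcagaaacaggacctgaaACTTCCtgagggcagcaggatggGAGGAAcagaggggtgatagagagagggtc
C1qc (chr4:136893066-136893164, minus strand): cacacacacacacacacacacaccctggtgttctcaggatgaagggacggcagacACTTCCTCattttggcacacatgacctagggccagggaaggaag
Mrc1 (chr2:14229164-14229391, plus strand): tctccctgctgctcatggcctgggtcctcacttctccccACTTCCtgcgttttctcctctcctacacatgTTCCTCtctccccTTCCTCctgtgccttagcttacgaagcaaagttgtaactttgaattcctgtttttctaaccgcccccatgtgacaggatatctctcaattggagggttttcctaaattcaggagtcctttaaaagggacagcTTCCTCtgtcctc
In the C1qc window the motifs overlap on the opposite strand, and in the Mrc1 window GAGGAA occurs 3 times and GGAAGT 1 time, all on the opposite strand. The RefSeq table was searched for 7 of the 10 genes (Cx3cr1, C1qb, C1qc, Aif1, Trem2, Mrc1 and Cd68) over the 250 bases before the start. Csf1r was left out of the search by hand, and no window was used for C1qa and Tyrobp, so the counts do not cover all 10. The windows of 6 of these genes held GAGGAA, and that of Cx3cr1 held neither motif, while C1qb, C1qc and Mrc1 also held GGAAGT. Over 32851 windows of the same length, 23.3% held GAGGAA, 19.7% GGAAGT and 36.7% at least 1 of them. CACGTG, the core of E-box sites bound by lysosomal gene regulators, was in 0 of the 7 and in 6.02% of all windows. These are matches of letters on either strand and were not tested as binding sites.

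Csf1r, the receptor tyrosine kinase on which microglia depend, did not pass the test, and its mean levels in KO and WT lay close together. Csf1r (ENSMUSG00000024621, chromosome 18, 61105572 to 61132149 on GRCm38, plus strand) had 167 and 134 reads in KO2 and KO4, against 137 and 157 in WT6 and WT8. In CPM the genotypes overlapped, with WT8 the highest library, KO2 next and KO4 the lowest. The means were 8.21 ± 1.27 CPM in KO and 8.90 ± 1.32 CPM in WT (SD, n = 2 each), which is -0.11 on the log2 scale (95% interval -0.58 to 0.36, edgeR adjusted p = 0.88). The KO level was thus 0.924 times that of WT, with bounds of 0.667 and 1.28, and the sign rested on single libraries, as the log2 fold change was 0.03 without KO4 and 0.05 without WT8. The last 873 bases of its exons are shared with Hmgxb3 on the other strand, and the sources used here do not say whether counting used strand, so reads there cannot be told apart.

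Cx3cr1, the fractalkine receptor, varied more between the KO libraries than between the genotypes. Cx3cr1 (ENSMUSG00000052336, chromosome 9, 119901616 to 120069879, minus strand) had 54 and 82 reads in KO2 and KO4, against 66 and 53 in WT6 and WT8. Both WT libraries lay between the KO libraries in CPM, and KO4 was 1.52 times KO2 with an exact counting interval of 1.07 to 2.19. Such 95% intervals hold for counting error alone. The log2 fold change was 0.05 (interval -0.62 to 0.72, edgeR adjusted p = 0.967), and it was -0.28 without KO4 and -0.04 without WT8. Of its exons, 78 bases are shared with the noncoding gene Gm33858 on the other strand.

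Trem2 and Tyrobp encode a receptor and the adaptor that carries its signal, and neither passed the test between genotypes. Trem2 (ENSMUSG00000023992, chromosome 17, 48346401 to 48354147, plus strand) had 38 and 34 reads in KO2 and KO4, against 31 and 44 in WT6 and WT8. Tyrobp (ENSMUSG00000030579, chromosome 7, 30413760 to 30417585, plus strand) had 50 and 33 reads in KO2 and KO4, against 24 and 41 in WT6 and WT8. For both genes WT6 was the lowest library and the genotypes overlapped. The log2 fold change of Trem2 was -0.21 (interval -0.98 to 0.56, edgeR adjusted p = 0.864), and 0.13 without WT8. That of Tyrobp was 0.20 (interval -0.74 to 1.14, edgeR adjusted p = 0.899), and it was -0.13 without KO2, -0.18 without WT6 and 0.70 without WT8. Tyrobp reads per Trem2 read were 1.32 and 0.971 in KO2 and KO4, against 0.774 and 0.932 in WT6 and WT8. The adaptor had more reads than the receptor in KO2 alone. Within WT alone, Tyrobp in WT8 was 1.84 times its level in WT6 (exact counting interval 1.09 to 3.18).

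**Figure D1:**
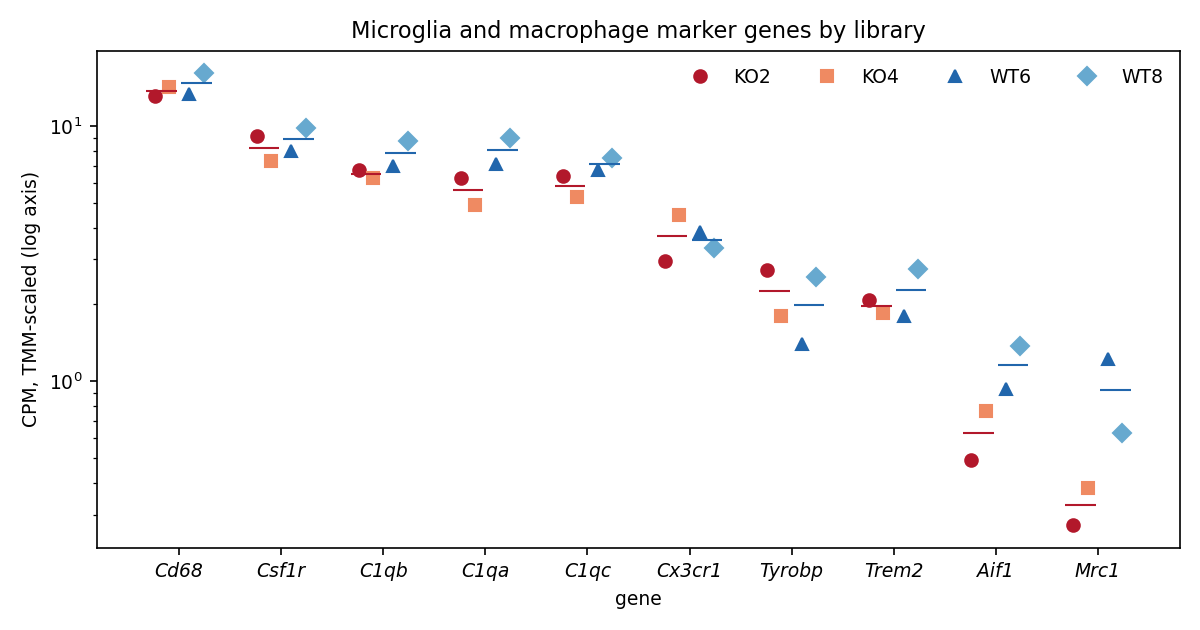
Level of each of the 10 marker genes in each library, in TMM-scaled CPM on a log axis, with KO libraries left of WT libraries and a short line at the mean of each genotype (n = 2 each). Aif1, Mrc1 and the C1q genes have both KO libraries below both WT libraries, whereas Csf1r, Cx3cr1, Trem2, Tyrobp and Cd68 overlap.

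The genes for the chains of C1q, C1qa, C1qb and C1qc, were lower in both KO libraries than in both WT libraries, and none passed the test. They form a cluster of 18675 bases on chromosome 4 (136880129 to 136898803, all on the minus strand), with 3616 bases between C1qb (ENSMUSG00000036905) and C1qc (ENSMUSG00000036896) and 2851 bases between C1qc and C1qa (ENSMUSG00000036887). C1qa had 115 and 90 reads in KO2 and KO4, against 122 and 143 in WT6 and WT8. C1qb had 123 and 115 reads in KO2 and KO4, against 120 and 140 in WT6 and WT8. The counts of C1qb overlap, and the genotypes separate only in CPM, at 6.71 and 6.28 in KO2 and KO4 against 6.98 and 8.77 in WT6 and WT8. C1qc had 117 and 97 reads in KO2 and KO4, against 116 and 120 in WT6 and WT8, and it too separates in CPM alone, at 6.38 and 5.29 against 6.74 and 7.51. In all 3 genes KO4 was the lowest and WT8 the highest library.

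C1qa averaged 5.59 ± 0.96 CPM in KO and 8.02 ± 1.32 CPM in WT (SD, n = 2 each). Its log2 fold change was -0.52 (SE 0.22, interval -1.04 to 0.0001), with an unadjusted edgeR p of 0.05004 and an adjusted p of 0.743. The log2 fold change was -0.28 for C1qb (interval -0.74 to 0.18) and -0.29 for C1qc (interval -0.75 to 0.18), with an edgeR adjusted p of 0.743 for both. Most of the gap lay between KO4 and WT8: C1qa in KO4 was 0.549 times WT8 (exact counting interval 0.417 to 0.719), C1qb 0.716 times (0.555 to 0.923) and C1qc 0.705 times (0.534 to 0.929). In KO2 over WT6 the ratios were 0.884 for C1qa, 0.962 for C1qb and 0.946 for C1qc, and each counting interval held 1. Without WT8 the log2 fold changes were -0.34 for C1qa, -0.10 for C1qb and -0.20 for C1qc, and without KO4 they were -0.35, -0.23 and -0.16 in that order.

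The chains of C1q are assembled in equal numbers in the protein. The reads of their genes made up similar shares in every library. These reads were not scaled to gene length, so the shares compare libraries and do not give the relative numbers of transcripts. C1qa held 32.4% of the 355 C1q reads in KO2 and 29.8% of 302 in KO4, against 34.1% of 358 in WT6 and 35.5% of 403 in WT8. The exact 95% intervals overlapped throughout, from 24.7% to 35.3% in KO4 and from 30.8% to 40.4% in WT8. C1qb held 34.6% and 38.1% in KO2 and KO4, against 33.5% and 34.7% in WT6 and WT8. C1qc held 33.0% and 32.1% in KO2 and KO4, against 32.4% and 29.8% in WT6 and WT8. At 302 to 403 reads a library, a shift of a few percentage points in the makeup of C1q was not detectable.

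**Figure D2:**
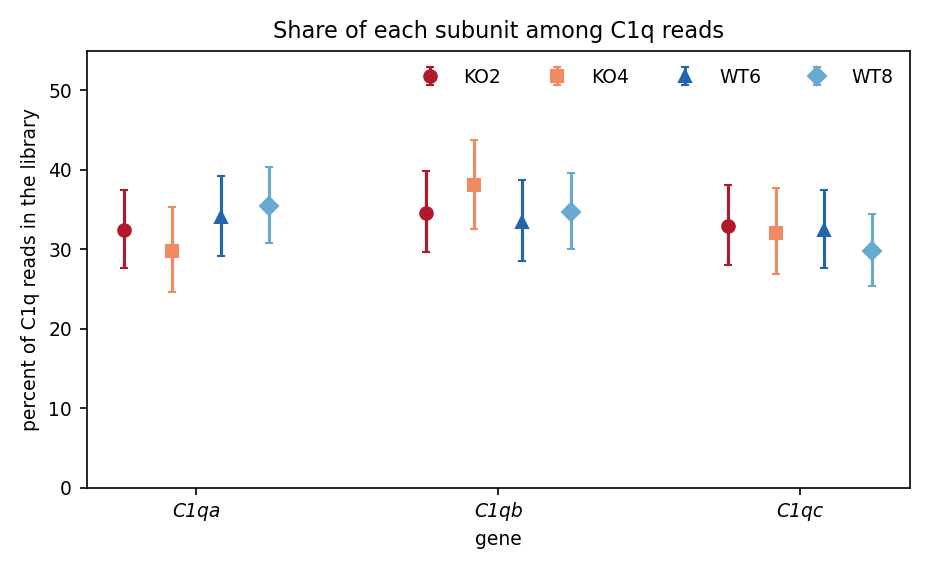
Share of C1q reads that fell on C1qa, C1qb and C1qc in each library, in percent, KO libraries left of WT libraries, with exact 95% intervals for counting error. All shares lie between 29.8% and 38.1%, and the intervals of the 4 libraries overlap for each gene.

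Aif1 and Cd68, a calcium-binding protein of the macrophage cytoskeleton known as IBA1 and a lysosomal membrane protein, lay far apart in abundance, and neither passed the test. Aif1 (ENSMUSG00000024397, chromosome 17, 35170991 to 35176068, minus strand) had 9 and 14 reads in KO2 and KO4, against 16 and 22 in WT6 and WT8. Both KO libraries were below both WT libraries, and the edgeR estimate was -0.87 on the log2 scale (SE 0.45, interval -1.95 to 0.21, adjusted p = 0.743). It was 0.528 times WT6 in KO2 and 0.555 times WT8 in KO4, and counting intervals of 0.206 to 1.27 and 0.263 to 1.13 both held 1. Cd68 (ENSMUSG00000018774, chromosome 11, 69664213 to 69666153, minus strand) had 241 and 261 reads in KO2 and KO4, against 230 and 257 in WT6 and WT8. It had the narrowest interval of the 10 genes, with a log2 fold change of -0.10 (interval -0.47 to 0.27, edgeR adjusted p = 0.858), which was 0.04 without WT8. The KO level of Cd68 was 0.93 times that of WT, with bounds of 0.72 and 1.2.

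Mrc1 encodes the mannose receptor CD206, which macrophages of the meninges and vessels carry and mature microglia largely lack, and it had the largest difference of the 10. Mrc1 (ENSMUSG00000026712, chromosome 2, 14229392 to 14332057, plus strand) had 5 and 7 reads in KO2 and KO4, against 21 and 10 in WT6 and WT8. The genotypes did not overlap, and the highest value came from WT6 alone. The means were 0.327 ± 0.077 CPM in KO and 0.924 ± 0.420 CPM in WT (SD, n = 2 each). The log2 fold change was -1.48 (SE 0.56 and interval -2.82 to -0.15), with an unadjusted edgeR p of 0.0341 and an adjusted p of 0.743. Mrc1 reached the test only through the WT libraries, since neither KO library passed the level of 0.568 CPM that 2 libraries had to reach, so with these KO levels it could be tested only by being higher in WT. Mrc1 in WT8 was 0.513 times its level in WT6 (exact counting interval 0.216 to 1.14, which holds 1), and the log2 fold change was -0.92 without WT6 and -1.87 without WT8.

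Read together, 8 of the 10 genes lay below 0 and 2 above, with a median log2 fold change of -0.24 beside -0.01 over all genes tested, of which 51.1% lay below 0. None of the 10 passed the edgeR test at an adjusted p under 0.05, where the share of all genes called was 0.00637% (1 gene, H2afy), and none passed with DESeq2, which called 0.0255% of all genes. At an unadjusted p under 0.05 edgeR gave 1 of the 10 (Mrc1) and 738 of all genes (4.7%), limma-voom gave Mrc1 beside 4.65% of all genes, and DESeq2 gave 0 of the 10 beside 1.94%. Both KO libraries lay below both WT libraries for 5 of the 10 (Aif1, Mrc1, C1qa, C1qb and C1qc) and above for 0, where 19.4% of all tested genes lay below and 20.1% above, 39.4% in either direction. Mrc1 is among the genes below 0, those at an unadjusted p under 0.05 and those without overlap. With its KO levels it could enter the test only by being higher in WT, so it could add to these counts in that direction only. The larger fold within a genotype exceeded the fold between genotypes for 6 of the 10. The former is the larger of 2 ratios of single libraries and tends to exceed a fold between groups of 2. Its share over all genes was not computed, so this count does not describe the 10. WT8 was the highest library for 7 of the 10, where it was highest for 32.8% of all tested genes. The median of the 10 was -0.30 without KO2, -0.20 without KO4, -0.40 without WT6 and -0.07 without WT8, and the number above 0 was 1 without KO2 or WT6, 2 without KO4 and 4 without WT8. Each such fit holds a single library of a genotype, which is assumed to vary like the others. Over all genes edgeR called 1 without KO2, 2 without KO4, 0 without WT6 and 104 without WT8, and none of these calls was among the 10.

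**Figure D3:**
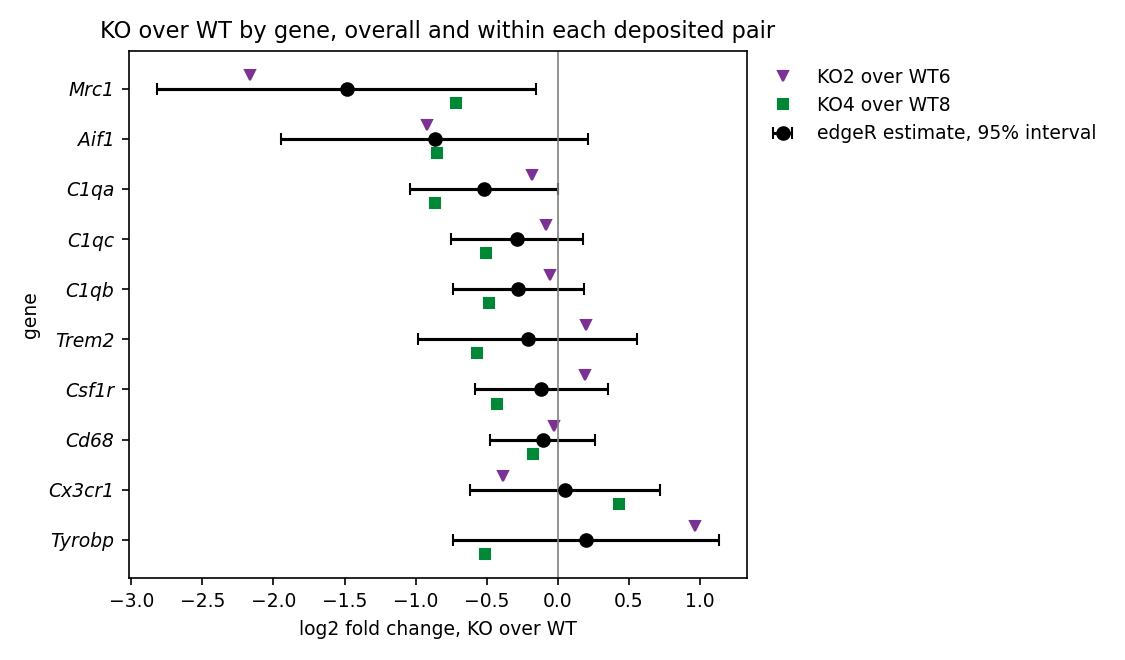
Log2 fold change of KO over WT for each of the 10 genes, with the edgeR estimate and its 95% interval in black and the ratio within each deposited pair of libraries as coloured points. The interval of Mrc1 alone lies wholly below 0, but Mrc1 entered the test only through its WT libraries. With its KO levels it could be tested only by being higher in WT. The pair KO4 over WT8 lies left of KO2 over WT6 for 7 of the 10 genes, the exceptions being Mrc1, Aif1 and Cx3cr1.

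The tables were deposited as pairs, KO2 with WT6 and KO4 with WT8, and each pair gives a ratio per gene. For KO2 over WT6 the median log2 ratio of the 10 genes was -0.07, and for KO4 over WT8 it was -0.51, where the medians of all tested genes were 0.001 and 0.008. In the first pair 7 of the 10 lay below 0 and in the second 9, with 6 below in both (24.5% of all tested genes were below in both), 0 above in both and 4 of opposite sign (Csf1r, Cx3cr1, Trem2 and Tyrobp). Aif1 and Mrc1 were lower by 1.5-fold or more in KO2 over WT6, 2 of 10 beside 3.55% of all tested genes. The same pair had Tyrobp higher by that fold, 1 of 10 beside 6.38%. In KO4 over WT8, C1qa, Aif1 and Mrc1 were lower by that fold, 3 of 10 beside 7.15%, and 0 were higher, beside 6.52%. Mrc1, which entered the test only through its WT libraries, is in both counts of lower genes and among the genes below 0 in both pairs. Counting intervals left out 1 in KO2 over WT6 for 2 of the 10, Tyrobp (ratio 1.95, interval 1.18 to 3.33) and Mrc1 (0.223, interval 0.0658 to 0.609), beside 30.4% of all tested genes. In KO4 over WT8 they left out 1 for 4 of the 10, Csf1r (0.744, interval 0.587 to 0.943) and the C1q genes, beside 48.2%. Between libraries of 1 genotype they left out 1 for Cx3cr1 in KO4 over KO2 (1 of 10 beside 26.9%) and for Tyrobp and Cd68 in WT8 over WT6 (2 of 10 beside 40.7%). The share of the 10 whose counting interval left out 1 was in no case above that of all tested genes. Such intervals widen as reads fall, and the 10 genes held 5 to 261 reads, so these shares do not describe the genes beyond their depth. A pair has 1 library of each genotype and no test was run within it.

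The authors' deposited tables carry a fold and p-values of their own for each pair, by a test not given in the sources used here. Mrc1 was the only one of the 10 that the authors' deposited table marked as significant, in KO2 over WT6, with a log2 fold of -2.15 and an adjusted p of 0.00579, where 1.86% of the genes in that table were marked, 0.543% as lower. In KO4 over WT8, where 5.05% of genes were marked, 2.09% as lower, 0 of the 10 were, although C1qa had an adjusted p of 9.66e-05 at a log2 fold of -0.80 in the authors' deposited table. The adjusted values of Csf1r, C1qb and C1qc were also under 0.05 there, at log2 folds of -0.36, -0.42 and -0.44. That of Cx3cr1, higher in KO4 at 0.495, was not. Marked genes in both tables have an absolute log2 fold of at least 1. For Tyrobp the authors' deposited table gave a log2 fold of 0.98 and an adjusted p of 0.0253 in KO2 over WT6, and -0.45 and 0.194 in KO4 over WT8. Some adjusted values are below the p they belong to, as for Cd68 in KO2 over WT6 (adjusted 0.726, unadjusted 0.921 in the authors' deposited table). These p-values compare single libraries, not genotypes.

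Levels of different genes were set against each other per kilobase of merged exons. Cd68 stood highest, at 10.9 ± 0.616 CPM per kilobase in KO and 11.7 ± 1.53 in WT (SD, n = 2 each). C1qb followed at 5.97 ± 0.282 in KO and 7.23 ± 1.16 in WT, and C1qa at 5.38 ± 0.926 in KO and 7.71 ± 1.27 in WT, and these neighbours did not differ beyond their spread. Tyrobp at 3.40 ± 0.983 in KO and 2.97 ± 1.24 in WT, and C1qc at 3.02 ± 0.399 in KO and 3.69 ± 0.283 in WT, came next and overlapped. Csf1r stood at 1.42 ± 0.220 in KO and 1.54 ± 0.229 in WT, and Cx3cr1 at 0.824 ± 0.240 in KO and 0.794 ± 0.0813 in WT. The lowest were Aif1 (0.410 ± 0.126 in KO, 0.753 ± 0.207 in WT), Trem2 (0.397 ± 0.0311 in KO, 0.461 ± 0.136 in WT) and Mrc1 (0.0514 ± 0.0121 in KO, 0.145 ± 0.0660 in WT). Among all tested genes with a length, Cd68 lay at the 69.6 percentile of this level, Csf1r at 26.8, Trem2 at 10.6 and Mrc1 at 0.644. The order depends on the length used. Per kilobase of the principal transcript, a choice made after seeing the data, the mean level over the 4 libraries was 1.95 for Trem2 in place of 0.429, 5.39 for C1qc in place of 3.36, 1.02 for Aif1 in place of 0.581 and 1.82 for Csf1r in place of 1.48.

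Other genes of the myeloid lineage gave no common direction. Of 20 further genes of microglia and macrophages in general, 18 were in both tables and 15 were tested, with 6 above 0, 9 below, 0 passing in edgeR, 0 at an unadjusted p under 0.05, and a median of -0.25, which was 0.04 without KO4, -0.09 without WT6 and -0.06 without WT8. Lcp1, which encodes the actin-bundling protein L-plastin, was the most abundant, with 12.5 ± 0.267 CPM in KO and 15.3 ± 0.974 CPM in WT (log2 fold change -0.29, edgeR adjusted p = 0.743). Ly86, which encodes the MD-1 partner of a Toll-like receptor homologue, stood at 0.50 on 48 and 52 reads in KO2 and KO4, against 34 and 30 in WT6 and WT8. These are the genes with the smallest p of their list, and they lay on opposite sides of 0.

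Transcription factors of the macrophage lineage were split as well. Of 8 tested of 10 listed, 4 lay above 0 and 4 below, with a median of -0.055 (0.074 without KO2) and 0 at an unadjusted p under 0.05 in edgeR. Spi1, which encodes PU.1 itself, had 34 and 20 reads in KO2 and KO4, against 41 and 37 in WT6 and WT8. Its genotypes did not overlap in CPM, and edgeR gave -0.67 on the log2 scale (SE 0.35, adjusted p = 0.743). Ikzf1, the Ikaros factor of blood cells, had 80 and 70 reads in KO2 and KO4, against 33 and 56 in WT6 and WT8, which edgeR put at 0.60 on the log2 scale (SE 0.33, adjusted p = 0.743).

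Genes that microglia use more than other macrophages were measured for all 12 listed, with 6 above 0 and 6 below, a median of -0.01 (from -0.146 without WT6 to 0.024 without WT8) and 0 passing in edgeR. Tmem119, a surface protein of microglia, had 35 and 23 reads in KO2 and KO4, against 44 and 49 in WT6 and WT8. It was the only one of the 12 at an unadjusted p under 0.05, with a log2 fold change of -0.83, an unadjusted edgeR p of 0.0393 and an adjusted p of 0.743. P2ry13, a purinergic receptor gene, stood at -0.81 on 18 and 7 reads in KO2 and KO4, against 24 and 16 in WT6 and WT8. Sparc, the most abundant at -0.12, is a matrix protein gene that vessels also express, and it made up most of the summed level of this list in each library. Of the 11 genes of border macrophages, 4 were in both tables and 2 were tested, Stab1 at -0.14 and Dab2 at 0.06. Defining genes of border macrophages such as Lyve1, Cd163 and Folr2 were not listed in both tables, and Pf4 had 5 reads in each KO library, against 7 in WT6 and 11 in WT8.

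Genes for the signals that microglia receive did not pass, and with all libraries their estimates lay below 0. This held for all 7 listed ligands and recruiting factors, with a median of -0.13, but 1 lay above 0 without KO2, 2 without KO4 and 2 without WT6. The median was -0.216 without KO2, -0.082 without WT6 and -0.226 without WT8. In edgeR 0 passed and 1 was at an unadjusted p under 0.05, which was Tgfb1 at -0.52, with an unadjusted edgeR p of 0.0304 and an adjusted p of 0.743. Csf1 had 117 and 160 reads in KO2 and KO4, against 187 and 129 in WT6 and WT8, with overlapping genotypes and a log2 fold change of -0.33. Cx3cl1, the fractalkine gene, had 291 and 293 reads in KO2 and KO4, against 310 and 269 in WT6 and WT8 (log2 fold change -0.13, interval -0.44 to 0.18). Il34 was scarce, with 12 and 9 reads in KO2 and KO4, against 13 and 9 in WT6 and WT8. Cxcl12, the most abundant, stood at -0.05.

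Genes downstream of the receptors and of complement did not pass either. Of the TREM2 and TYROBP signalling list, 10 of 12 were tested, 3 above 0 and 7 below, with a median of -0.17 (-0.10 without KO4 and -0.09 without WT8) and 0 at an unadjusted p under 0.05 in edgeR. Pik3cd, a catalytic subunit of phosphoinositide kinase, stood at -0.20 and the adaptor gene Grb2, used by most cells, at -0.15. The CSF1R signalling list had 3 of 10 above 0 and a median of -0.14 (-0.067 without WT8). Its genes with the smallest p were the kinase gene Mapk3 at -0.22 and the feedback inhibitor Socs3 at -0.23, with Akt1 the most abundant at -0.16. Of 17 tested complement genes, 9 lay above 0 and 8 below, with a median of 0.019, which was -0.019 without KO4, 0.184 without WT6 and -0.027 without WT8. In that list Cd59a, an inhibitor of the membrane attack complex, stood at -0.86 on 21 and 26 reads in KO2 and KO4, against 31 and 46 in WT6 and WT8. The neuronal gene Sez6, the most abundant, stood at -0.23 and its relative Sez6l2 at -0.18. The proteases that act with C1q, C1ra and C1s1, were not listed in both tables. The 19 lysosomal genes, of which Cd68 is no member, had 9 above 0, 10 below and a median of -0.023 (0.037 without KO4, -0.06 without KO2 and -0.078 without WT6), with Psap at -0.11, Npc2 at -0.15 and Scarb2 at 0.16.

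**Figure D4:**
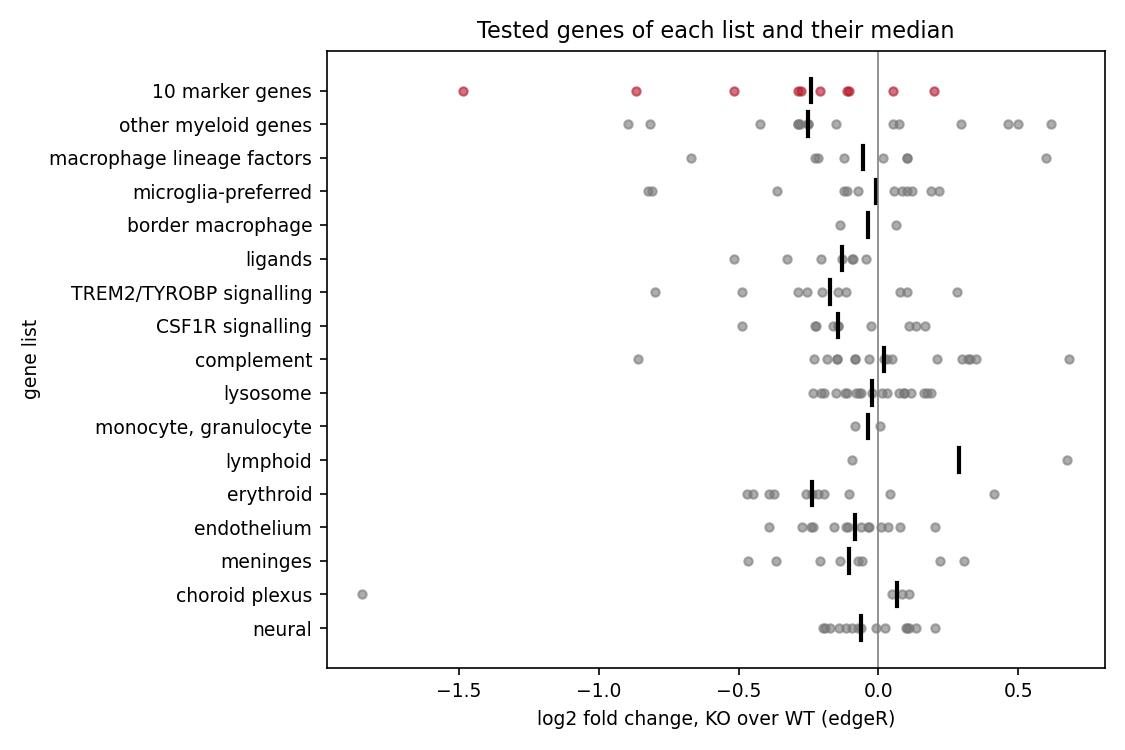
Log2 fold change of KO over WT from edgeR for each tested gene of the 10 markers and of 16 further lists, a point per gene, with a bar at the median of each list. The median of the 10 markers is -0.24 and that of the other myeloid genes -0.25, and lists with 2 tested genes (border macrophage, monocyte and granulocyte, lymphoid) hold too few to describe.

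Most listed genes of other blood cells were not in both tables. Of 15 genes of monocytes, granulocytes and mast cells, 3 were in both tables, and Ly6c2, Ccr2, S100a8, S100a9, Mpo and Elane were not. Prtn3 had 130 and 144 reads in KO2 and KO4, against 126 and 136 in WT6 and WT8, and Csf3r had 22 and 10, against 19 and 10. Of 10 lymphoid genes 3 were in both tables, among them Lck with 126 and 150 reads in KO2 and KO4, against 137 and 130 in WT6 and WT8, and Cd79a with 16 and 16, against 7 and 11. The summed level was 8.46 CPM in each KO library for the monocyte and granulocyte genes, against 8.60 and 9.39 CPM in WT6 and WT8, and 8.08 and 9.28 CPM against 8.43 and 9.14 CPM for the lymphoid genes. Prtn3 made up most of the first sum and Lck most of the second in each library, so neither sum describes its list.

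WT8, the library in which 7 of the 10 markers were highest, also had the highest summed level of the erythroid, endothelial and meningeal lists. Sums of other lists were highest in WT8 too. This held for the neural sum (8741 CPM against 8047 to 8400 CPM in the other libraries) and the lysosomal sum (1651 against 1511 to 1595 CPM). The neural order depends on a single gene, Tubb3, with 3442 CPM in WT8, against 3009, 2789 and 2838 CPM in KO2, KO4 and WT6. Of the 15 neural genes, 6 were highest in WT8 and 6 were lowest there. Of all tested genes, 32.8% were highest in WT8. The 11 erythroid genes in both tables summed to 1006 and 910.6 CPM in KO2 and KO4, against 788 and 1485 in WT6 and WT8, and 8 of the 11 were highest in WT8. The embryonic globin gene Hbb-y had 3240 and 4155 reads in KO2 and KO4, against 2309 and 6795 in WT6 and WT8. The adult-type alpha globin genes Hba-a1 (6405 and 5576 reads in KO2 and KO4, against 4633 and 7823 in WT6 and WT8) and Hba-a2 (208 and 164, against 186 and 271) are near-identical copies whose reads may be split between them. The 14 endothelial genes summed to 355.5 and 327 CPM in KO2 and KO4, against 345.5 and 391 in WT6 and WT8, and 8 of the 14 were highest in WT8. Among them Flt1, a VEGF receptor gene, stood at -0.39, with an unadjusted edgeR p of 0.0396 and an adjusted p of 0.743, and Slc2a1, the glucose transporter of the barrier, at -0.23. Meningeal genes summed to 149 and 77.9 CPM in KO2 and KO4, against 68.2 and 170 in WT6 and WT8, most of it Zic1, which neural cells also express. The fibroblast genes Col3a1 and Pdgfra of that list stood at -0.37 and 0.30. Of the choroid plexus list, 4 of 8 were tested, and Ttr had 6 and 11 reads in KO2 and KO4, against 53 and 4 in WT6 and WT8. The most abundant gene of that list, Otx2, stood at 0.11 and Enpp2 at 0.08. In edgeR with all libraries kept, 0 genes of these lists passed: 2 of 11 erythroid genes lay above 0 with a median of -0.236, 4 of 14 endothelial genes with a median of -0.085, 2 of 8 tested meningeal genes with a median of -0.105, 3 of 4 choroid plexus genes with a median of 0.067, and 6 of 15 neural genes with a median of -0.063. Several of these directions rest on single libraries. Without WT8, 9 of 11 erythroid genes lay above 0 (median 0.163) and 7 of 8 meningeal genes (0.281), the endothelial median was -0.012 and the choroid plexus median 0.296. Without WT6 the medians were -0.585 for erythroid, -0.633 for meningeal and -0.319 for choroid plexus genes, and without KO2 the last was -0.813. Without KO4 the medians were 0.001 for neural, -0.036 for endothelial and -0.128 for erythroid genes. The part of these cells in the levels of the 10 markers was not tested.

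**Figure D5:**
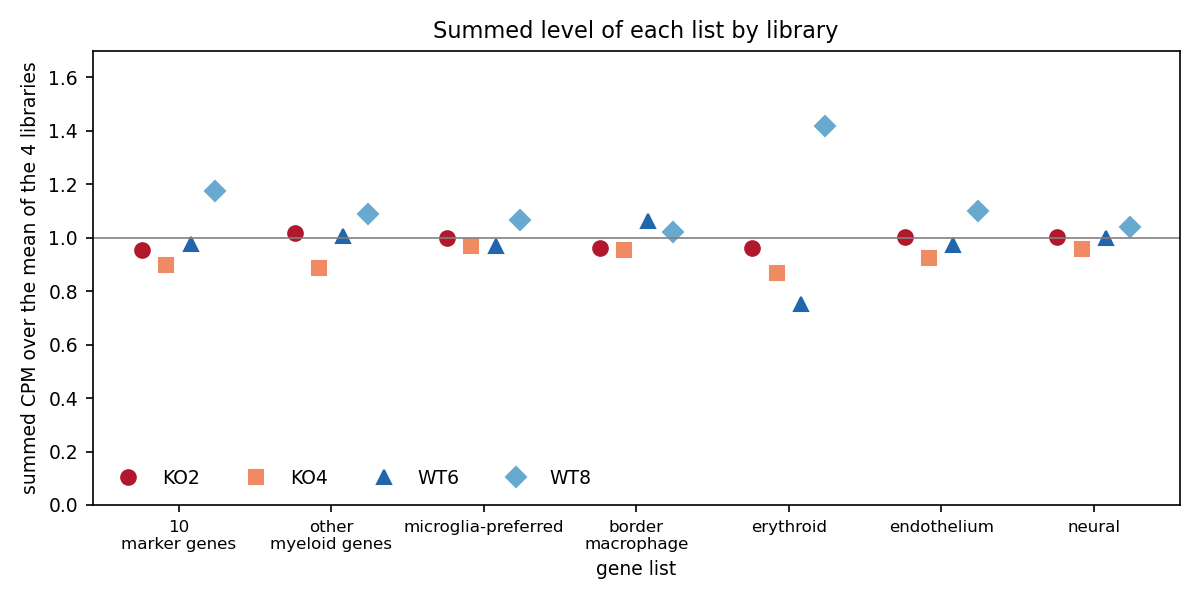
Summed CPM of the genes of each list in each library, divided by the mean of the 4 libraries, KO libraries left of WT libraries. WT8 is highest for the 10 markers (61.8 CPM against 47.3 to 51.3 CPM in the other libraries) and for erythroid genes (1485 CPM against 788 to 1006 CPM). It is also highest for every other list shown, the neural one included, except the border macrophage genes, for which WT6 is highest. The microglia-preferred sum is mostly Sparc and the largest part of the neural sum is Tubb3, and both genes are highest in WT8. Gene by gene, WT8 is highest for 5 and lowest for 3 of 12 microglia-preferred genes. For the 15 neural genes it is highest for 6 and lowest for 6.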

How the data were processed

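RNA from brains was sequenced in 2 KO and 2 WT libraries, and genotypes and library numbers come from the titles. Tools given in the submitters' processing notes, without roles, are HTSeq 0.6.0, TopHat2 2.0.12 and Bowtie2 2.2.3, and the build is mm9. Positions in the deposited tables were identical to GENCODE M21 on GRCm38 for 91.2% of the shared genes, so GRCm38 is given here. The authors deposited whole-number counts per gene, per the file headers. Their normalized column is a CPM value, found from the deposited values to be the count over a library total. The deposited tables also give a ratio (fold change) of KO over WT, its log2 and a p-value, per the file headers.

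Counts of 19150 shared genes were tested with edgeR 4.0.16 (quasi-likelihood F-test, genotype as the only term, TMM, filterByExpr, Benjamini-Hochberg adjustment over 15708 genes, threshold 0.05) in R 4.3.3. The filter asks for about 10 reads in 2 libraries. Alternatives were DESeq2 1.42.0, limma 3.58.1 (voom), a changed normalization or filter, a block for the deposited pair, and leaving out each library. The replicate numbers are not shared between genotypes and pair nothing. The 10 genes and all lists were chosen with earlier results of these data known. Named beside the 10 genes, by rule, are the macroH2A genes and, of each list but the neural one, its most abundant member, the 2 with the smallest p, Csf1, Il34 and Cx3cl1, and the monocyte, granulocyte and lymphoid genes with over 10 reads in a library. A gene that this rule names is not reported here. Further genes (Lyve1, Cd163, Folr2, Pf4, C1ra, C1s1, Tubb3 and 6 unlisted monocyte and granulocyte genes) were named after their values were seen. Lists are described by counts and medians, with no test. TMM factors lay between 0.971 and 1.014.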

Additional observations from a re-analysis of the deposited data

How the results depend on the processing

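With all libraries kept, the 70 values of the 10 genes under the other normalizations, filters and tools, or blocked by deposited pair, kept their direction, and no gene was called. Over all 12 settings the adjusted p of the 10 genes ranged from 0.314 (without WT6) to 1.0. All 8 reversals came from leaving out a library. Tyrobp ranged from -0.182 without WT6 to 0.70 without WT8 and was -0.126 without KO2. Csf1r ranged from -0.275 to 0.048 (without WT8) and was 0.034 without KO4. Cx3cr1 ranged from -0.281 (without KO4) to 0.329 and was -0.043 without WT8. Trem2 ranged from -0.488 to 0.128 and Cd68 from -0.234 to 0.039, the upper end of both being without WT8. The cause was not tested.

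The count of all genes called was 1 in the edgeR fit, 4 with DESeq2 (2 higher and 2 lower), 2 when blocked by deposited pair, and from 0 to 104 when a library was left out. The median of the 10 genes lay between -0.40 and -0.071 when a library was left out, and between -0.249 and -0.219 otherwise. The number of the 10 above 0 was 1 to 4 when a library was left out and 2 otherwise. Pairing by replicate number was not possible, as the genotypes share none, so the block is the pair in which libraries were deposited. At 5 to 261 reads a gene, depth is a limit: the 95% interval of the log2 fold change reached 0.37 (Cd68) to 1.34 (Mrc1) to either side.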
